A study of Homo sapiens with 6 samples.

Results

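The genes of the platelet-derived growth factor (PDGF) family were measured by RNA sequencing in CCD18Co, an established line of human colon fibroblasts, after silencing of *LTBP2*. The members were the rows of the deposited count table whose gene symbol was that of a PDGF ligand chain (*PDGFA*, *PDGFB*, *PDGFC* and *PDGFD*), of a receptor (*PDGFRA* and *PDGFRB*) or of the receptor-like protein (*PDGFRL*). They are 7 of the 60663 genes in the table. One group of 3 libraries, siNT, came from cells transfected with a pool of siRNAs against no human target. The other group of 3 libraries, siLTBP2, came from cells transfected with an siRNA pool against *LTBP2*. That gene encodes a protein of the extracellular matrix from the family named latent TGF-beta binding proteins. All 6 libraries came from cells that received siRNA with Lipofectamine 2000, a lipid transfection reagent, and cells were collected 48 h after transfection. The series holds 1 cell line and 1 siRNA pool for *LTBP2*, and the labels do not say that replicates were separate cultures, so p-values measure the spread between these libraries, which may be technical.

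PDGFs are secreted dimers that drive the growth and migration of mesenchymal cells. The A, B and C chains bind the alpha receptor encoded by *PDGFRA*, and the B and D chains bind the beta receptor encoded by *PDGFRB*. Both receptors are tyrosine kinases of the cell surface that form dimers on ligand binding and signal through RAS, phosphoinositide 3-kinase and phospholipase C gamma. The A and B chains are cut by furin-like convertases inside the cell, whereas the C and D chains leave the cell with a CUB domain that plasminogen activators and related proteases remove. In the gut wall, *PDGFRA* marks fibroblasts close to the epithelium, and *PDGFRB* is found in fibroblasts and in the mural cells of blood vessels.

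Reads counted on genes summed to between 44663424 and 53576899 per library, and levels are given as CPM, the reads of a gene scaled to the size of its library after TMM normalization. *LTBP2* itself was at 25.0, 23.1 and 21.2 CPM in siNT and at 6.49, 8.61 and 6.0 CPM in siLTBP2, so that 30.4% of its siNT level remained (log2 fold change -1.72, SE 0.15, adjusted p = 6.6e-05, where SE is the standard error). The 8 fibroblast markers, *VIM*, *COL1A1* and *THY1* among them, summed to 9461 to 12608 CPM in siNT and 9658 to 13652 CPM in siLTBP2, and 0 of the 8 passed the test. Of the lists for other cell types, markers of mural cells summed to 123 to 165 CPM in siNT and 206 to 261 CPM in siLTBP2, smooth muscle markers to 183 to 196 and 284 to 376 CPM, and epithelial markers to 40.1 to 52.4 and 85.4 to 99.1 CPM. Each of these lists was mixed. *KCNJ8*, *ABCC9*, *NOTCH3*, *MYH11*, *DES*, *CNN1*, *EPCAM*, *CDH1* and *KRT20* each had a mean under 1 CPM in both groups, and *KCNJ8* and *KRT20* were at 0. Other markers were expressed, with means in siNT and siLTBP2 of 126 and 208 CPM for *CSPG4*, 3.17 and 4.57 for *RGS5*, 64.2 and 75.5 for *ACTA2* and 10.4 and 13.0 for *KRT8*. Endothelial, leukocyte and platelet markers summed to at most 2.01, 0.444 and 0.148 CPM in any library.

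All 7 members passed edgeR's filter on low counts and were tested in a fit of 16920 genes. *PDGFRB*, *PDGFA* and *PDGFD* fell in siLTBP2, to 65.8%, 66.8% and 61.9% of their siNT levels. *PDGFRA* had a mean 129.2% of that in siNT, with groups that overlapped, and *PDGFC*, *PDGFB* and *PDGFRL* had means within 103.6% to 110.6% of siNT. A gene passed the test at an adjusted p below 0.05 in edgeR's quasi-likelihood test, with Benjamini-Hochberg adjustment over all genes tested. By this rule 3 of the 7 members passed, all 3 lower, against 19.3% of all genes tested, of which 9.76% were higher and 9.51% lower. In the same 3 members, the siNT and siLTBP2 libraries did not overlap, which was the case for 37.0% of all genes tested. None of the 7 had both an adjusted p below 0.01 and a change of more than 2-fold, as 2.57% of genes did. With the family this small, these shares describe the members and are not a test of the family.

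**Figure D1:**
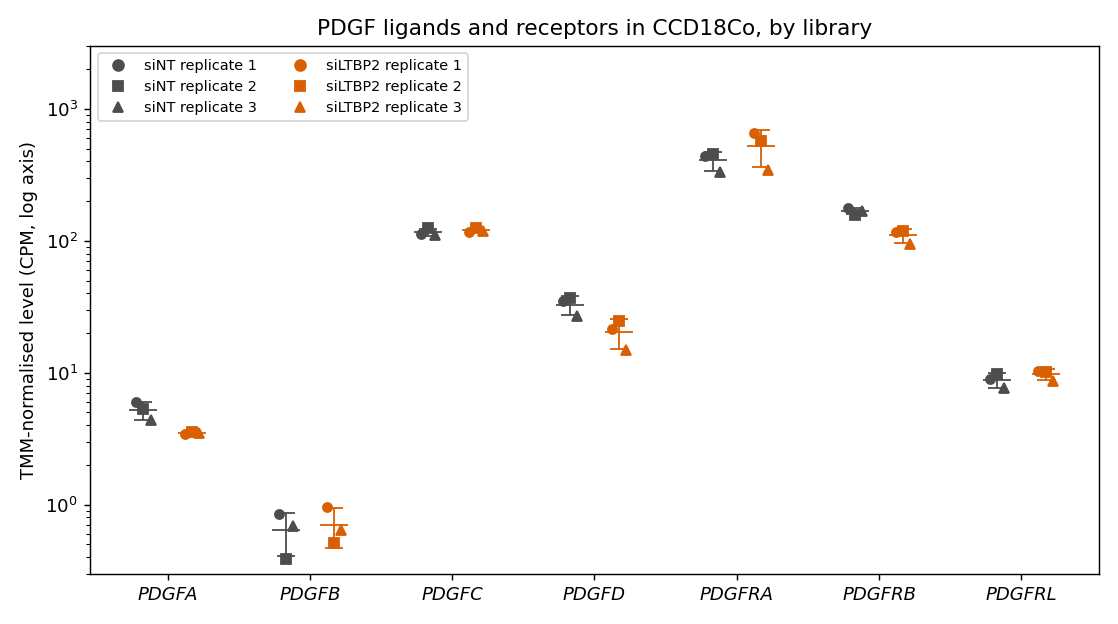
Level of each PDGF family gene in each library, as TMM-normalized CPM on a log axis. Each point is 1 library, grey for siNT and orange for siLTBP2, with the shape giving the replicate number, and bars give the mean and SD of 3 libraries. Points of *PDGFA*, *PDGFD* and *PDGFRB* lie lower in siLTBP2 with no overlap, while the 2 groups overlap for the other 4 genes.

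Between genes, levels were compared per kilobase of exon, as CPM divided by the length of the union of each gene's exons. In siNT the receptors were the highest, with *PDGFRA* at 42.6 ± 6.92 (SD, n = 3) and *PDGFRB* at 23.5 ± 1.36 CPM per kilobase, followed by *PDGFC* at 19.3 ± 1.28. *PDGFD* was at 7.7 ± 1.26, *PDGFRL* at 3.65 ± 0.46, *PDGFA* at 1.14 ± 0.18 and *PDGFB* at 0.16 ± 0.0584 CPM per kilobase. No neighbours in this order overlapped between libraries, although *PDGFRB* and *PDGFC* came close, with 22.2 as the lowest *PDGFRB* and 20.8 as the highest *PDGFC* value. In siLTBP2 *PDGFC*, at 20.0 ± 0.609, ranked above *PDGFRB*, at 15.4 ± 1.87 CPM per kilobase, and the values of *PDGFD* (4.77 ± 1.19) and *PDGFRL* (4.02 ± 0.396) overlapped. With the length of the canonical transcript in place of the union of exons, *PDGFRL* ranked above *PDGFD* in siLTBP2. Among all genes tested, the mean CPM of *PDGFRA* was at percentile 98.5, that of *PDGFRB* at 90.5 and that of *PDGFB* at 18.7.

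*PDGFRB*, the receptor for the B and D chains (ENSG00000113721, GRCh38, chr5:150113839-150155872, minus strand, 23 exons in the canonical transcript), was at 178, 158 and 167 CPM in siNT and at 117, 119 and 94.9 CPM in siLTBP2. Every siLTBP2 library lay below every siNT library. The means were 168 ± 9.69 and 110 ± 13.3 CPM (SD, n = 3), and the log2 fold change was -0.60 (SE 0.10, 95% interval -0.83 to -0.38, adjusted p = 0.0025). By p-value it stood at rank 775 of the genes tested. The call was made in 14 of 14 alternative settings, with log2 fold changes between -0.67 and -0.50.

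*PDGFRA*, the receptor for the A, B and C chains (ENSG00000134853, chr4:54229280-54298245, plus strand, 23 exons), was the most abundant member. It was at 436, 453 and 331 CPM in siNT and at 661, 571 and 344 CPM in siLTBP2. In siLTBP2, 2 libraries were above all of siNT, while siLTBP2 replicate 3 lay within the siNT range and siNT replicate 3 was the lowest of the 6. The means were 407 ± 66.1 and 525 ± 164 CPM (SD, n = 3). Its log2 fold change came to 0.37 (SE 0.21, 95% interval -0.09 to 0.83) and the gene did not pass (adjusted p = 0.25). Without siLTBP2 replicate 3 it passed, with a log2 fold change of 0.60 (adjusted p = 0.0095), and it also passed in the fit with no filter on low counts (0.36, adjusted p = 0.0084). The call was made in 3 of 14 alternative settings, which include the fit with the replicate number as a block, given in the closing section. Without each of the other libraries the log2 fold change was as low as 0.17, with no call. In GENCODE 44, 1533 exon bases of *PDGFRA* (16.1%) also belong to ENSG00000282278, a protein coding gene model on the same strand that had 0 counts in every library. Reads in those bases may have gone uncounted, and the counting mode is not given in the sources used here.

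*PDGFRL* encodes a secreted protein that resembles the ligand-binding part of the receptors and lacks the kinase (ENSG00000104213, chr8:17576433-17644071, plus strand, 6 exons). Its libraries were at 9.02, 9.84 and 7.64 CPM in siNT and at 10.3, 10.2 and 8.62 CPM in siLTBP2, with overlap. The log2 fold change was 0.14 (SE 0.14, 95% interval -0.17 to 0.44, adjusted p = 0.54). *MTUS1*, which lies on the opposite strand and shares 277 exon bases with it (11.4%), had a log2 fold change of -0.11 (adjusted p = 0.59). Whether strand was used in counting is not given in the sources used here, so reads in those bases cannot be assigned to 1 of the 2 genes with certainty.

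**Figure D2:**
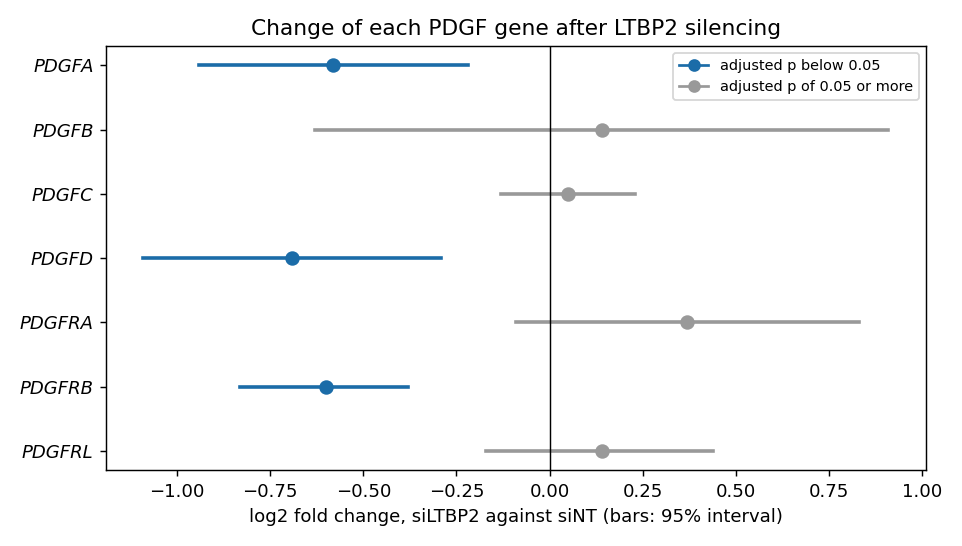
Log2 fold change of each PDGF family gene in siLTBP2 against siNT, with its 95% interval from edgeR's quasi-likelihood fit. Intervals of *PDGFA*, *PDGFD* and *PDGFRB*, in blue, lie below 0, and the interval of *PDGFB* is the widest, from -0.63 to 0.91.

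Among the ligands, *PDGFD* had the lowest fraction of its siNT level in siLTBP2. This chain binds the beta receptor (ENSG00000170962, chr11:103907189-104164379, minus strand, 7 exons). Its levels were 34.9, 36.9 and 26.7 CPM in siNT and 21.4, 24.8 and 14.8 CPM in siLTBP2, and replicate 3 was the lowest library of each group. The groups did not overlap, although siNT replicate 3 and siLTBP2 replicate 2 were close to each other. The means were 32.8 ± 5.39 and 20.3 ± 5.06 CPM (SD, n = 3), with a log2 fold change of -0.69 (SE 0.18, 95% interval -1.09 to -0.29, adjusted p = 0.022). The call was lost without siNT replicate 1 (-0.65, adjusted p = 0.063) and without siNT replicate 2 (-0.60, adjusted p = 0.095). It was kept without any of the other 4 libraries.

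*PDGFA*, the chain that binds the alpha receptor only (ENSG00000197461, chr7:497258-520296, minus strand, 6 exons), was at 6.01, 5.27 and 4.36 CPM in siNT and at 3.44, 3.53 and 3.47 CPM in siLTBP2. The siLTBP2 libraries were close together, and all 3 lay below the lowest siNT library. The means were 5.21 ± 0.828 and 3.48 ± 0.0456 CPM (SD, n = 3), with a log2 fold change of -0.58 (SE 0.16, 95% interval -0.94 to -0.22, adjusted p = 0.029). These levels rested on 235 to 278 reads per siNT library and 150 to 183 per siLTBP2 library. With 1 library left out at a time, the call was kept in 1 of 6 fits. It was lost without siNT replicate 1 (-0.47, adjusted p = 0.11), siNT replicate 2 (-0.57, 0.072), siLTBP2 replicate 1 (-0.57, 0.076), siLTBP2 replicate 2 (-0.59, 0.081) and siLTBP2 replicate 3 (-0.57, 0.055).

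*PDGFC*, a CUB-domain chain that acts on the alpha receptor (ENSG00000145431, chr4:156760454-156971799, minus strand, 6 exons), was the most abundant ligand. Its levels were 113, 125 and 110 CPM in siNT and 117, 124 and 119 CPM in siLTBP2, with all siLTBP2 libraries inside the siNT range. The log2 fold change was 0.05 (SE 0.08, adjusted p = 0.72), and its 95% interval, from -0.13 to 0.23, was the narrowest of the 7 members.

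*PDGFB*, a chain that binds both receptors (ENSG00000100311, chr22:39223359-39244982, minus strand, 7 exons), was the least abundant member, with 39, 19 and 37 reads in siNT and 42, 24 and 34 reads in siLTBP2. The exact Poisson 95% interval of the count of 19 ran from 11.4 to 29.7, which covers counting error only. Levels were 0.843, 0.385 and 0.686 CPM in siNT and 0.964, 0.508 and 0.645 CPM in siLTBP2, with overlap. The log2 fold change was 0.14 (SE 0.35, 95% interval -0.63 to 0.91, adjusted p = 0.83), and that interval holds changes in both directions. ENSG00000284633, a long noncoding RNA on the opposite strand, overlaps the span of *PDGFB* and shares no exon base with it. That RNA had 2 to 20 reads per library and a log2 fold change of -1.83 (adjusted p = 0.014). Without siLTBP2 replicate 1 that RNA did not pass (-1.54, adjusted p = 0.054).

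The receptors were also compared with each other within each library. The ratio of *PDGFRA* to *PDGFRB* in CPM per kilobase was 1.83, 2.14 and 1.48 in siNT and 4.23, 3.59 and 2.71 in siLTBP2. All siLTBP2 libraries, replicate 3 included, were above all siNT libraries. The means were 1.82 ± 0.326 and 3.51 ± 0.761 (SD, n = 3), and the difference in log2 ratio was 0.94. It combines the changes of the receptors given above and is no separate result. *PDGFRB* passed (-0.60), while *PDGFRA* did not (0.37, adjusted p = 0.25 in the quasi-likelihood test). An exact permutation test of that difference gave a two-sided p of 0.1, the smallest that 3 libraries against 3 allow. The ratio depends on the lengths used, being 2.17 in siNT and 4.2 in siLTBP2 with canonical transcripts, whereas the log2 difference does not. In a bulk sample, fewer cells of a kind and less RNA per cell cannot be told apart, so the ratio does not say whether the same cells carry both receptors.

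The makeup of the ligand transcripts also differed. Of the summed ligand level per kilobase, *PDGFC* made up 66.0%, 67.7% and 71.3% in siNT and 76.4%, 75.5% and 81.9% in siLTBP2. *PDGFD* made up 28.7%, 28.2% and 24.3% in siNT and 19.7%, 21.2% and 14.3% in siLTBP2. *PDGFA* took 4.01 ± 0.506% and 2.96 ± 0.151% (SD, n = 3), and *PDGFB* took 0.574 ± 0.228% and 0.692 ± 0.243%. The shares of *PDGFC*, *PDGFD* and *PDGFA* did not overlap between the groups, while the summed ligand level did, at 28.3 ± 2.46 and 25.7 ± 1.55 CPM per kilobase. These shares are parts of 1 total, so that a lower *PDGFD* raises the share of *PDGFC* at an equal level, and they were not tested.

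**Figure D3:**
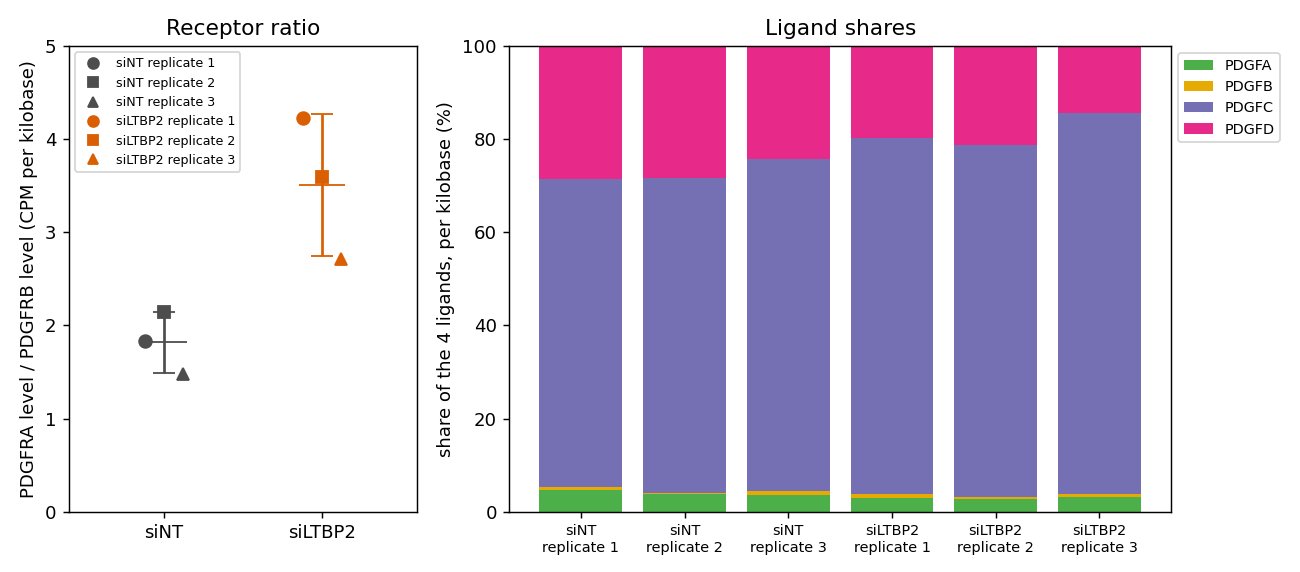
Left, the ratio of *PDGFRA* to *PDGFRB* (CPM per kilobase) in each library, with the mean and SD of 3 libraries per group, where the siLTBP2 libraries, at 2.71 to 4.23, lie above the siNT libraries, at 1.48 to 2.14. Right, the share of each ligand in the summed ligand level per kilobase (percent) in each library, where *PDGFC* takes the most in all 6 and *PDGFD* takes less in siLTBP2.

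The 250 bases before the transcription start site are shown for the 3 members that fell, which had groups that did not overlap, and for *PDGFRA*, which had the highest level, from RefSeq on GRCh38.p14. They are read 5′ to 3′ on the strand of the gene, at chr5:150155846-150156095 for *PDGFRB*, chr11:104164148-104164397 for *PDGFD*, chr7:519847-520096 for *PDGFA* and chr4:54229043-54229292 for *PDGFRA*. Capitals mark matches on either strand. The CCAAT box was searched for as CCAAT, the GC box of SP1-like factors as GGGCGG and the core of the TATA box as TATAAA. A word bound by SMAD proteins was searched for as CAGACA, and no match overlapped another.
PDGFRB: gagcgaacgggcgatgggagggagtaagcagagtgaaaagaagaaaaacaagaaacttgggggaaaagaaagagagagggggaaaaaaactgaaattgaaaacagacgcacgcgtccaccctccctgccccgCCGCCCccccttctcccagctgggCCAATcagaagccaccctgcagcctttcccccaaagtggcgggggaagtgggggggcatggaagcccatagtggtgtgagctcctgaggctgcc
PDGFD: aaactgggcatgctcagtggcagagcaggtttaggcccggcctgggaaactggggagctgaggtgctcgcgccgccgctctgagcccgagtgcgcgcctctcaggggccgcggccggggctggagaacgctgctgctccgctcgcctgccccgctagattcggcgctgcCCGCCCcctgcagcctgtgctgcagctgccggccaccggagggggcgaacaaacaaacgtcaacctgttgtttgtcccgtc
PDGFA: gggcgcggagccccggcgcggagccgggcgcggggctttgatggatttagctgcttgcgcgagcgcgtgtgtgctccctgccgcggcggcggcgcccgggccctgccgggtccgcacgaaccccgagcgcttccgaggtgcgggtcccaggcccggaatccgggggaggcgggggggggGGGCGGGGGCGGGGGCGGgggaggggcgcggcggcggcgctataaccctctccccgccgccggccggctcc
PDGFRA: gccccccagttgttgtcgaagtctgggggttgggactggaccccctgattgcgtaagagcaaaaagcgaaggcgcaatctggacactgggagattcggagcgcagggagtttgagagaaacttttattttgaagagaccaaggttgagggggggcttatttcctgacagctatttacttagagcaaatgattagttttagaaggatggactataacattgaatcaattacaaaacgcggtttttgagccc

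These windows differed in base composition, with a GC content of 58.4% for *PDGFRB*, 69.2% for *PDGFD*, 81.6% for *PDGFA* and 46.8% for *PDGFRA*. *PDGFA* had 3 GC boxes side by side, *PDGFRB* and *PDGFD* had 1 each, and *PDGFRA* had 0. *PDGFRB* had the 1 CCAAT box among these windows. TATAAA and CAGACA were in 0 of the 4. Among 35116 RefSeq windows of the same length, 42.6% held a GC box, 32.0% a CCAAT box, 10.7% TATAAA and 13.6% CAGACA. A match is a description of letters and was not read as a binding site. The promoters of the other 3 members are not shown here.

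One further sequence feature came from an earlier look at these data, in which the word GCACCCA in a 3′ UTR went with lower levels in siLTBP2. It was searched for in the canonical transcripts of all 7 members. It was present in *PDGFRB*, once in the 3′ UTR (chr5:150115711-150115717) and once in the coding sequence (chr5:150135614-150135620), and in *PDGFD*, once in the 5′ UTR (chr11:104164107-104164113), all on the minus strand. The transcripts of *PDGFA*, *PDGFB*, *PDGFC*, *PDGFRA* and *PDGFRL* held no match. The word is in capitals below, with 11 bases on each side.
PDGFRB 3′ UTR: cccccctgccaGCACCCAgcatctcctgg
PDGFRB coding: agaatacttttGCACCCAcaatgactccc
PDGFD 5′ UTR: aaggaagtgcgGCACCCAcacgcgctcgg

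Where the 3′ UTR of a tested coding gene was 50 bases or longer, GCACCCA was found there in 1455 genes (11.8%). Their median log2 fold change was -0.15 and 27.8% of them passed the test as lower, against a median of 0.02 and 9.35% among the 10859 without it. *PDGFRB*, at -0.60, is 1 of the carriers, whereas *PDGFA*, at -0.58, and *PDGFD*, at -0.69, have no match in the 3′ UTR. Since the word was found in the same libraries, these shares are no independent evidence. Genes with and without it were not matched for 3′ UTR length, base composition or level. A part of the word in the level of *PDGFRB* was not tested.

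The profile of each receptor over the 6 libraries was compared with that of 9189 protein coding genes of at least 10 CPM, by the root mean square distance of log2 CPM centred on each gene's own mean. The genes nearest to *PDGFRB* were *SLC22A18* (0.023), *PLXNB1* (0.027) and *FAM117B* (0.033), where the median distance of all genes was 0.36. *SLC22A18* was at 19.5, 17.4 and 18.6 CPM in siNT and at 12.8, 13.6 and 10.4 CPM in siLTBP2. The genes nearest to *PDGFRA* were *CAVIN2* (0.066), *UCP2* (0.087) and *LOXL3* (0.097), with a median of 0.4. *CAVIN2* was at 84.1, 79.8 and 59.1 CPM in siNT and at 110, 101 and 62.8 CPM in siLTBP2, and thus shared with *PDGFRA* the low replicate 3 of each group. Within the family, *PDGFC* and *PDGFRL* were the closest pair (0.117), followed by *PDGFA* and *PDGFRB* (0.159), while the receptors lay 0.529 apart. The libraries share their scaling, so these distances are descriptions.

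Of 94 genes in 7 lists around the family, 88 were tested, and 23 passed as higher and 14 as lower, so that 42.0% passed, against 19.3% of all genes tested (9.76% higher and 9.51% lower). The median log2 fold change over the lists was 0.05, against -0.01 over all genes tested. The lists were written with results of these data known, their genes were not matched to all genes tested for level, and no test of a list was made.

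The proteases that cut the ligands passed in both directions. Of 6 tested, 1 was higher, 2 were lower and 3 did not pass. *PLAU*, the urokinase that can release active PDGF-D, was at 691, 508 and 771 CPM in siNT and at 1457, 1448 and 1739 CPM in siLTBP2 (log2 fold change 1.24, SE 0.15, adjusted p = 0.00041). *PLAT*, the tissue plasminogen activator that cuts PDGF-C, fell from 546 ± 127 to 295 ± 106 CPM (SD, n = 3, log2 fold change -0.89, adjusted p = 0.033). *PLAT* lost its call under DESeq2 (adjusted p = 0.052), without siNT replicate 1 (-0.80, 0.087) and without siNT replicate 2 (-0.78, 0.13). *FURIN*, the convertase of the A and B chains, was at 141, 103 and 135 CPM in siNT and at 69.9, 72.1 and 69.3 CPM in siLTBP2 (-0.84, SE 0.12, adjusted p = 0.00073). *ST14*, which encodes another protease that cuts PDGF-D, was under the filter on low counts.

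Of 7 PDGF binding proteins and coreceptors tested, 1 was higher and 1 lower. *NRP1*, a coreceptor for VEGF and semaphorins that also takes part in PDGF signalling, was at 286, 223 and 280 CPM in siNT and at 634, 591 and 558 CPM in siLTBP2 (1.18, SE 0.11, adjusted p = 0.00011). *SDC2*, a heparan sulfate proteoglycan of the cell surface, fell from 103 ± 5.28 to 76.3 ± 6.48 CPM (-0.43, adjusted p = 0.0075). Of the receptors closest in structure to the PDGF receptors, *CSF1R* and *KIT* were tested. *CSF1R* was at 0.696 ± 0.139 and 1.32 ± 0.28 CPM (0.92, adjusted p = 0.03). Its call did not hold without replicate 1 (0.87) or 2 (0.81) of siNT, nor without replicate 2 (0.93) or 3 (0.75) of siLTBP2. Of 6 genes of the related VEGF family, *FLT1*, a VEGF receptor, was the 1 that passed, falling from 22.5 ± 3.04 to 14.7 ± 2.15 CPM (-0.61, adjusted p = 0.011). Without siLTBP2 replicate 2, *FLT1* did not pass (-0.55, adjusted p = 0.052).

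Behind the receptors, 32 adaptors and effectors were tested, of which 6 were higher, 4 lower and 22 did not pass. The adaptors *SHC1* and *NCK1*, which bind phosphorylated receptors, fell. *SHC1* was at 374, 356 and 367 CPM in siNT and at 210, 232 and 203 CPM in siLTBP2 (-0.77, SE 0.09, adjusted p = 0.00026), and *NCK1* went from 52.9 ± 1.92 to 33.1 ± 1.5 CPM (-0.67, adjusted p = 0.00047). *FYN*, a SRC family kinase, rose from 16.6 ± 0.912 to 23.7 ± 0.667 CPM (0.51, adjusted p = 0.0045). The median of this list was 0.04.

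Of 17 negative regulators of receptor signalling, 5 were higher, 5 lower and 7 did not pass. The ubiquitin ligases *CBL* and *CBLB*, which mark active receptors for breakdown, fell, *CBL* from 201 ± 18 to 132 ± 2.27 CPM (-0.61, adjusted p = 0.0011) and *CBLB* from 19.6 ± 3.74 to 10.1 ± 1.63 CPM (-0.96, adjusted p = 0.0024). *SOCS3*, a suppressor of cytokine signalling (0.60, adjusted p = 0.0026), and *SPRY4*, a feedback inhibitor of the RAS pathway (0.76, adjusted p = 0.0027), rose. *SPRY2*, named after its values were seen, was the 1 gene of this list with more than a 2-fold change at an adjusted p below 0.01 (1.11, adjusted p = 0.0064). *SPRY2* fell short of that mark without siNT replicate 1 (1.01, adjusted p = 0.028), siNT replicate 2 (0.99, 0.044), siLTBP2 replicate 2 (1.1, 0.024) or siLTBP2 replicate 3 (0.88, 0.0063), though its adjusted p stayed below 0.05 in each. *SPRY1*, of the same family and also named after its values were seen, fell (-0.62, adjusted p = 0.015). It was at 60.4, 52.6 and 57.8 CPM in siNT and at 44.9, 38.4 and 28.1 CPM in siLTBP2. Whether its call holds with 1 library left out is not given here.

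Of 18 genes that respond to growth factor signalling, 9 were higher, 1 was lower and 8 did not pass, with a median log2 fold change of 0.64. Such genes answer to many receptors, and a link of theirs to the PDGF genes was not tested. *HAS2*, a hyaluronan synthase, was at 9.0, 7.31 and 8.46 CPM in siNT and at 23.7, 26.7 and 37.8 CPM in siLTBP2 (1.83, SE 0.17, adjusted p = 9.9e-05). *DUSP5* and *DUSP6*, phosphatases of ERK that ERK signalling itself induces, rose by log2 fold changes of 1.77 (adjusted p = 0.0004) and 1.12 (adjusted p = 8e-05). *ETV4*, an ETS transcription factor downstream of ERK, was at 21.1, 16.2 and 26.1 CPM in siNT and at 47.0, 46.6 and 46.3 CPM in siLTBP2 (1.14, adjusted p = 0.00054). The gene that fell was *CCL2*, which encodes a chemokine and is named after its values were seen, from 10.9 ± 3.09 to 5.84 ± 0.674 CPM (-0.90, adjusted p = 0.0083).

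**Figure D4:**
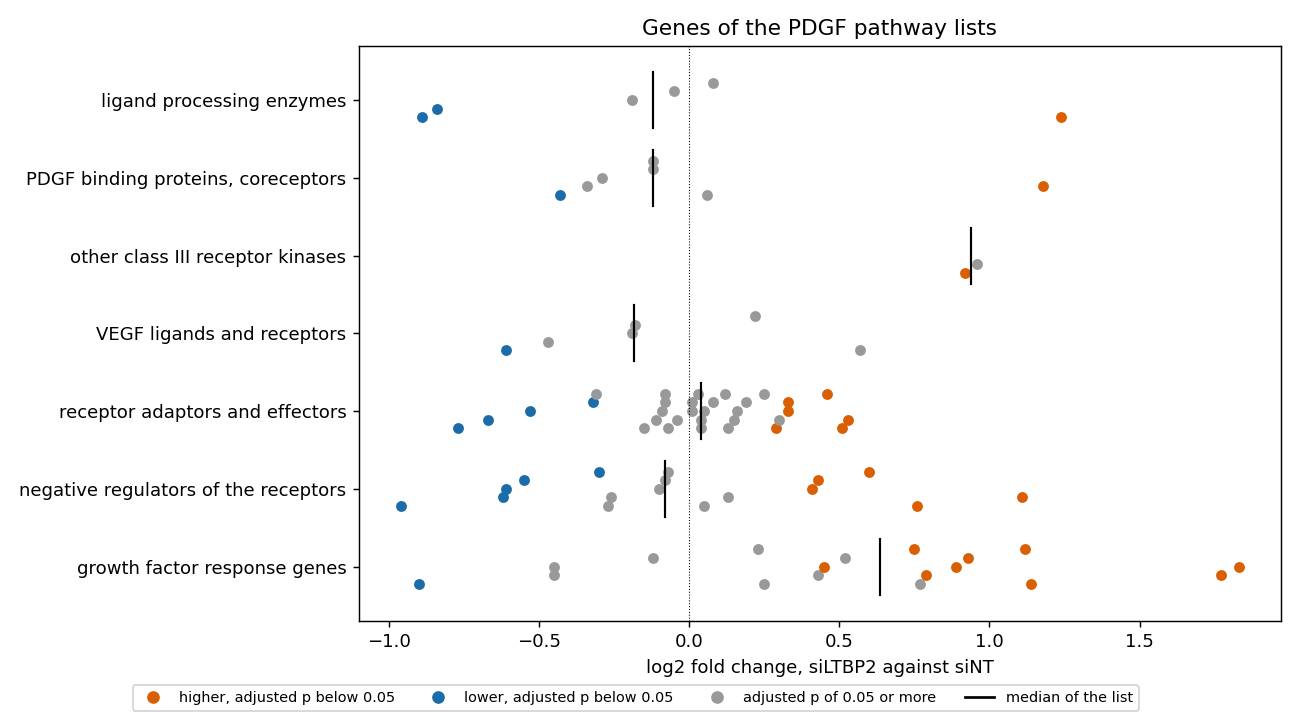
Log2 fold change in siLTBP2 against siNT of the 88 tested genes in the 7 pathway lists. Each point is 1 gene, orange where higher and blue where lower at an adjusted p below 0.05 and grey otherwise, spread vertically for sight only, and black lines give list medians, which reach 0.64 for the growth factor response genes and lie between -0.18 and 0.04 for the other lists except the 2 class III kinases (0.94).

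Mural cells of blood vessels typically carry *PDGFRB*. Of the 6 markers of this cell type, 3 had means under 1 CPM and 4 were tested, of which 2 passed as higher and 0 as lower. Among all genes tested, 9.76% were higher and 9.51% lower. *CSPG4*, the proteoglycan NG2, rose from 126 ± 19.1 to 208 ± 23.1 CPM (SD, n = 3, log2 fold change 0.72, adjusted p = 0.0025), and *MCAM* was at 11.5 ± 2.02 and 18.4 ± 4.85 CPM (0.67, adjusted p = 0.033). *MCAM* lost its call without siNT replicate 2 (0.68, adjusted p = 0.098), siNT replicate 3 (0.55, 0.094), siLTBP2 replicate 1 (0.47, 0.11) or siLTBP2 replicate 2 (0.67, 0.083). Of the 6 smooth muscle markers, 3 had means under 1 CPM and 3 were tested, of which 2 passed as higher and 0 as lower. *TAGLN* was at 84.3 ± 8.26 and 188 ± 51.7 CPM (1.16, adjusted p = 0.001) and *ACTG2* at 41.2 ± 1.1 and 61.1 ± 9.61 CPM (0.57, adjusted p = 0.0056). *ACTA2* did not pass (0.23, adjusted p = 0.31). Of the 5 epithelial markers, 3 had means under 1 CPM and 2 were tested. Of these, 1 passed as higher, the keratin *KRT18*, at 36.4 ± 6.19 and 80.8 ± 7.66 CPM (1.15, adjusted p = 0.00024). Whether these shifts have a part in the levels of the PDGF genes was not tested.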

How the data were processed

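Stranded libraries were made from total RNA after removal of ribosomal RNA. The authors mapped read pairs to GRCh38 with STAR 2.7.1a (2 passes) and deposited the gene counts of HTSeq 0.11.2 without normalization. The sources used here do not give the strand setting, counting mode or annotation release. Levels, fold changes and tests were computed from these counts with the quasi-likelihood test of edgeR 4.0.16 under R 4.3.3, after filterByExpr and TMM, two-sided and with no block, and Benjamini-Hochberg adjustment over 16920 genes. An SE is the absolute log2 fold change over the root of the F statistic. Exon lengths came from GENCODE 44, which holds 60462 of the 60663 gene identifiers, 95.7% of them at the same start. The tests were checked on simulated data. Members and lists were chosen with earlier results of these data known. Genes named were the members, genes overlapping them, *LTBP2*, up to 4 passing genes of smallest adjusted p per list and the 3 genes nearest each receptor, apart from those stated as named later and the markers. The values of 1 gene that this rule names are not reported here. Alternatives were the study's likelihood ratio test, scaling by RLE, by upper quartile or by total counts, DESeq2 1.42.0, other low-count filters, the replicate number as a block, leaving out each library, another threshold and canonical lengths. Lengths without exon bases shared on the strand were added after the data were seen. Replicates differed by more than sampling noise (chi-square per degree of freedom 24.6 to 48.1).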

Additional observations from a re-analysis of the deposited data

How the results depend on the processing

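Under the 14 alternatives to the test, scaling, filter and libraries, the log2 fold changes of the members kept direction and side of the threshold in 85 cases, lost the call in 7, gained it in 3 and changed sign in 2. Both changes of sign were of *PDGFB*, which was -0.12 without siNT replicate 2 and -0.14 without siLTBP2 replicate 1, in a range of -0.14 to 0.37. With 1 library left out, between 1 and 3 members passed, with 1 (*PDGFRB*) without siNT replicate 1 or siNT replicate 2. At an adjusted p below 0.01, 1 member passed. What caused these shifts was not tested.

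Same-numbered libraries deviated together with correlations of 0.30, 0.08 and 0.43, against -0.39 to 0.10 for other pairs. The labels give replicate numbers but do not say that same-numbered libraries were made together, so numbers were not taken as pairs. With the replicate number as a block, *PDGFRA* passed (0.33, adjusted p = 0.0024), as did *PDGFA* (-0.57, 0.002), *PDGFD* (-0.71, 4.8e-08) and *PDGFRB* (-0.61, 1.7e-07), so that 4 members passed, and 6131 genes passed in place of 3261. Differences in the log2 receptor ratio within replicate numbers were 1.2, 0.75 and 0.87 (p = 0.25 in a two-sided exact permutation test, the smallest that 3 pairs allow).

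Of the named pathway genes, 258 values kept their call and 8 lost it. Total-count scaling moved the median of all genes to -0.044 and changed no direction or call of a member. Depth limits *PDGFB*, with 19 to 42 reads per library.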
